A study of Drosophila melanogaster with 18 samples.

Results

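The 10 genes described here encode actin and non-muscle myosin II of *Drosophila* and a pair of regulators of filament turnover. They are the actin genes *Act5C*, *Act42A*, *Act57B*, *Act79B*, *Act87E* and *Act88F*, the myosin genes *sqh* and *zip*, the cofilin gene *tsr* and the profilin gene *chic*. They were chosen by name, and every array probe annotated to one of them was taken, which gave 15 probes for 10 of the 13131 gene symbols on the array. Transcript levels were measured with 18 one-colour arrays in S2R+ cells, an adherent cell line derived from *Drosophila* embryos. Cells received double-stranded RNA (dsRNA) against *His2Av*, which encodes the histone variant H2Av (H2Av RNAi), or, as a control, against *lacZ*, a gene of bacteria (lacZ RNAi). After 4 days with dsRNA at 25 °C, dishes spent 24 h at 14, 25 or 30 °C, which gave 6 groups of 3 arrays. All groups thus carried a dsRNA, at 30 µg per dish, and all descended from 1 cell line. Fewer cells had been seeded for the warmer dishes, so that cell densities would be alike at harvest.

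Actin monomers assemble into filaments that carry the shape, adhesion and movement of a cell. Profilin loads monomers with ATP and delivers them to growing filament ends, cofilin severs old filaments, and non-muscle myosin II pulls filaments past each other. *Act5C* and *Act42A* encode the cytoplasmic actins found in nearly every fly cell, whereas *Act57B* and *Act87E* are known chiefly from larval and other muscles, *Act79B* from muscles of the adult and *Act88F* from the indirect flight muscle. Genes of this kind are also widely used as references in transcript measurements. The study used *Act5C*, which lies on chromosome X, as one of the reference transcripts of its qRT-PCR, with the pair of primers below, written 5′ to 3′. They are shown because array probes for this transcript gave different answers between temperatures, as described below.
*Act5C* forward primer: gatctgtatgccaacaccgt
*Act5C* reverse primer: gcggggcaatgatcttgatc

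All values are log2 of the normalized signal of a probe, so 1 unit is 2-fold, and levels were compared between groups for 1 probe at a time. Values of a group are given in the order of replicates 1, 2 and 3, and groups in the order of 14, 25 and 30 °C. A probe was tested if it was well above background on at least 2 of 3 arrays of a group, which 21758 probes were, among them 13 probes of 8 of the 10 genes. A change was called if its adjusted p in limma was below 0.05 and it was at least 2-fold. The dsRNA had lowered its target: *His2Av* averaged 15.53, 15.89 and 16.12 at 14, 25 and 30 °C in lacZ RNAi against 12.39, 12.82 and 12.18 in H2Av RNAi. The paper describes S2R+ cells as most similar to hemocytes. All 10 genes of a hemocyte marker list were well above background on all 18 arrays, as were 8 of 11 muscle markers. Of all spots, 56.2 to 67.0% were well above background on an array, so detection alone does not mark a cell type. Array quality weights did not fully converge and ran as high as 13.3. On these weights, lacZ RNAi 25 °C replicate 1 stood apart most of the 18 arrays, at 0.116. Next came lacZ RNAi 30 °C replicate 2, at 0.173. Printed changes of a member that moved markedly when either array was left out are also given without it. The 3 arrays of each group lay on a slide of their own, so that slide and group cannot be told apart in any comparison.

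Of the 13 probes, 10 lay at or above the 97th percentile of mean signal among all probes tested, and most of them moved little. In 11 of 13 probes the 6 group means spanned less than 1.28, which was the median span of all probes tested. The other 2 probes were those of *Act57B* and *Act87E*, whose group means spanned 1.84 and 1.99. Across 9 comparisons between pairs of groups, 110 of the 117 changes were under 2-fold, and in 80 of them the whole 95% interval lay within 2-fold in either direction. The other 7 changes were 2 of *Act57B*, 4 of *Act87E* and 1 of a *chic* probe. The same shares over all probes tested are not given here, so these counts cannot be read as a trait of the members. They also belong to quantile normalization. Scaling to the 75th percentile moved sizes either way. For H2Av against lacZ RNAi at 25 °C, *sqh* gave 0.99 in place of 0.90, *Act42A* probe 2 0.98 in place of 0.70, and *Act57B* −0.58 in place of −1.37. The mean signals of *Act57B* and *Act87E* lay at the 27.6 and 30.7 percentile among all probes tested. When the 6 groups were ordered by their means for each probe, 10 of 65 neighbouring pairs (15.4%) had arrays that did not overlap, beside 15.7% of such pairs over all probes tested.

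**Figure D1:**
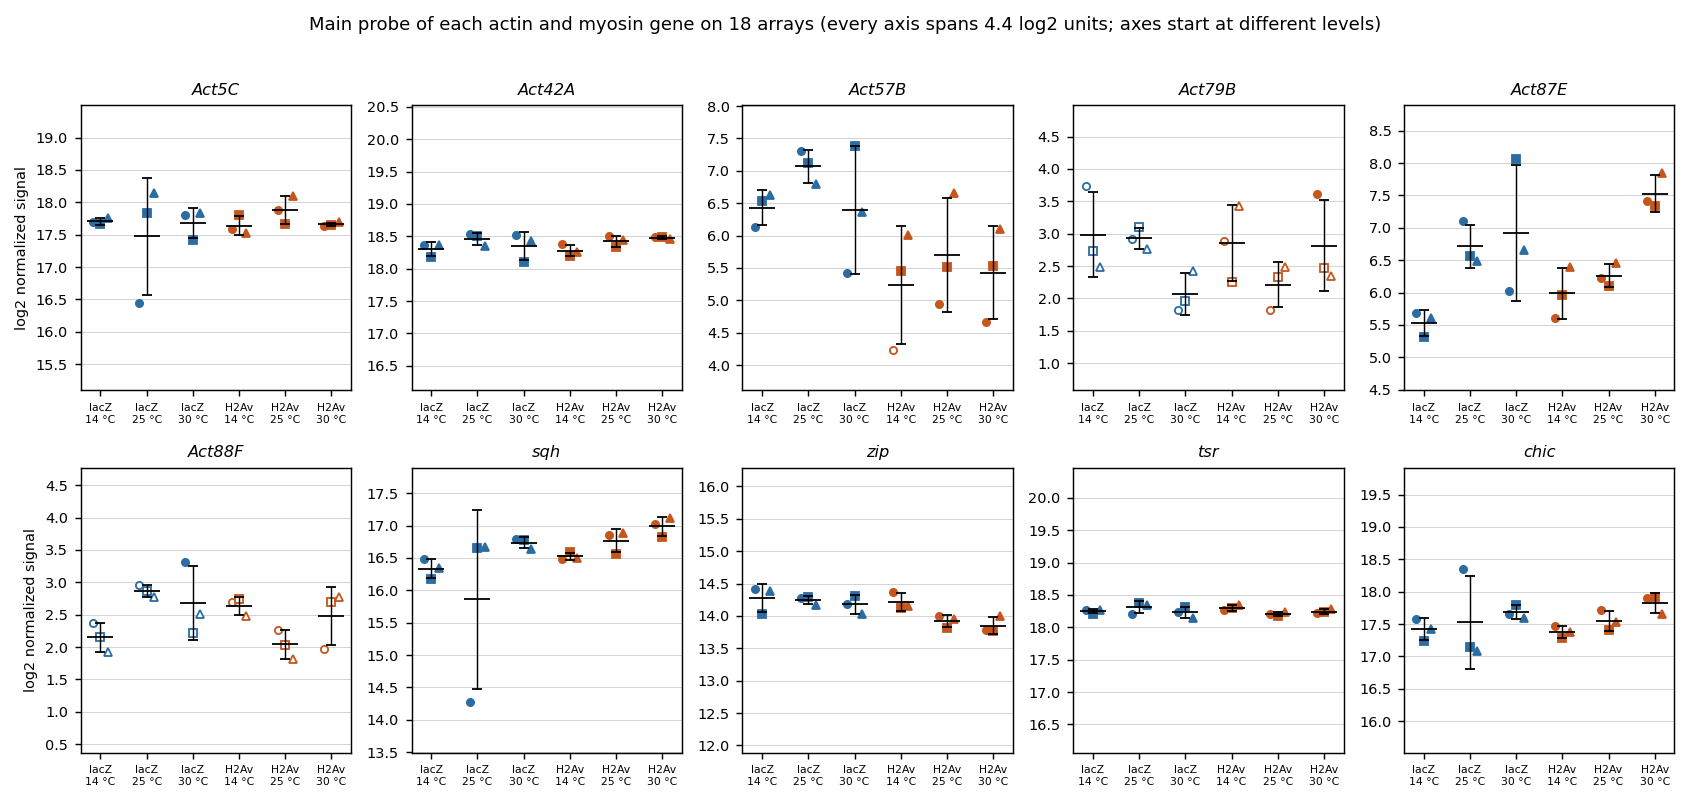
Log2 normalized signal of the main probe (highest mean signal) of each of the 10 genes in the 6 groups. Circles, squares and triangles are replicates 1, 2 and 3, open symbols were not well above background, bars are mean ± SD of 3 arrays, and every vertical axis spans the same number of log2 units. *Act57B* is lower in H2Av RNAi and *Act87E* lower at 14 than at 30 °C, while *tsr* stays between 18.15 and 18.38. *Act79B* and *Act88F* are well above background on only 1 array each.

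*Act5C*, the major cytoplasmic actin gene, was measured by 2 probes that were designed to different transcripts. Probe 1, the brighter, stood at 17.69, 17.66 and 17.76 at 14 °C in lacZ RNAi, at 16.45, 17.84 and 18.14 at 25 °C, then 17.80, 17.41 and 17.83 at 30 °C. In H2Av RNAi it stood at 17.58, 17.81 and 17.53, at 17.88, 17.67 and 18.10, and at 17.64, 17.65 and 17.69 at the same temperatures. The groups overlapped and the lowest array by far was lacZ RNAi 25 °C replicate 1. Between 14 and 30 °C probe 1 differed by 0.02 in lacZ RNAi (95% interval −0.64 to 0.69) and by −0.02 in H2Av RNAi (−0.69 to 0.65).

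Probe 2 of *Act5C* behaved differently. In lacZ RNAi it gave 17.29, 16.97 and 17.37 at 14 °C, 17.10, 17.49 and 17.47 at 25 °C, then 17.77, 17.77 and 17.73 at 30 °C. In H2Av RNAi it gave 17.22, 16.99 and 17.03, then 17.41, 17.18 and 17.44, then 17.54, 17.68 and 17.57. Every array at 14 °C was thus below every array at 30 °C of the same dsRNA. The level at 14 °C was 68.4% of that at 30 °C in lacZ RNAi (log2 change −0.55 ± 0.15 SE, n = 3 arrays a group, limma adjusted p = 0.0119) and 69.9% in H2Av RNAi (−0.52 ± 0.15, limma adjusted p = 0.014), both under 2-fold. In RNA of whole cultures, less transcript per cell and fewer cells that express it cannot be told apart. Scaling each array to its 75th percentile left the sign but gave −0.37 (limma adjusted p = 0.241) and −0.23 (limma adjusted p = 0.454). The adjusted p also passed 0.05 without lacZ RNAi 14 °C replicate 2 (−0.43, limma adjusted p = 0.0657) and, in H2Av RNAi, without replicate 2 of 14 °C (−0.47, limma adjusted p = 0.0506) or of 30 °C (−0.48, limma adjusted p = 0.0532). Fitted on the 6 lacZ RNAi arrays concerned alone, it was 0.061.

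Which of the transcripts the primers above amplify was not determined here. The log2 gap of probe 2 from probe 1 averaged −0.49 at 14 °C against 0.08 at 30 °C with *lacZ* dsRNA. With *His2Av* dsRNA it averaged −0.56 against −0.06. The gap thus differed between 14 and 30 °C by −0.53 (exact permutation test in either direction, p = 0.005). That is the smallest p its 400 permutations allow, and slide and temperature are not separated in it. These probes and temperatures were picked after their values were seen, so the p does not allow for that choice and is descriptive.

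*Act42A*, the second cytoplasmic actin gene, was among the brightest probes of the array. Probe 1 lay between 18.11 and 18.53 on all 18 arrays, its group means spanned 0.20, and all 9 of its intervals lay within 2-fold. Probe 2 stood at 16.74, 17.76 and 17.96 at 25 °C in lacZ RNAi and at 18.20, 18.16 and 18.20 at 25 °C in H2Av RNAi, which did not overlap. That difference was 1.63-fold (0.70 ± 0.24 SE, limma adjusted p = 0.0445), but the first of these lacZ RNAi arrays was the one that stood apart, and without it the difference was 0.33 (limma adjusted p = 0.148). Probe 1 differed by −0.04 in the same comparison. Leaving out any of the 3 H2Av RNAi arrays at 25 °C also took the adjusted p of probe 2 past 0.05.

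*Act57B*, a muscle actin gene, was lower in cells with H2Av RNAi. In lacZ RNAi it stood at 6.13, 6.54 and 6.63 at 14 °C, 7.30, 7.12 and 6.80 at 25 °C, then 5.42, 7.39 and 6.37 at 30 °C. In H2Av RNAi it stood at 4.23, 5.46 and 6.01, at 4.94, 5.51 and 6.66, and at 4.66, 5.53 and 6.10. The lacZ and H2Av RNAi arrays did not overlap at 14 and at 25 °C and overlapped at 30 °C. Averaged over the temperatures, the level in H2Av RNAi was 44.2% of that in lacZ RNAi, a 2.26-fold fall (log2 change −1.18 ± 0.32 SE, 95% interval −1.86 to −0.49, limma adjusted p = 0.0106). This was the single member probe called among 13 in that comparison, in which 8.33% of all probes tested were called.

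At single temperatures the difference in *Act57B* did not pass the test, at −1.20 at 14 °C (limma adjusted p = 0.224), −1.37 at 25 °C (0.0803) and −0.96 at 30 °C (0.313), each ± 0.56 SE, and at −0.47 at 30 °C without lacZ RNAi 30 °C replicate 2. Leaving out 1 array at a time kept the mean change between −1.34 and −1.01 and kept it called. It was not called after scaling to the 75th percentile (−0.74, limma adjusted p = 0.0706), after normexp background correction (−0.55, limma adjusted p = 0.00483) or in the authors' own normalized values (−0.63, limma adjusted p = 0.00451). The probe was well above background on 17 of 18 arrays, the exception being H2Av RNAi 14 °C replicate 1, its lowest value. In H2Av RNAi replicate 1 was the lowest and replicate 3 the highest array at each temperature. Between temperatures *Act57B* was not called in any comparison, and it differed between 14 and 30 °C by 0.04 in lacZ RNAi (0.54 without lacZ RNAi 30 °C replicate 2) and −0.20 in H2Av RNAi, with intervals that reached past 2-fold.

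*Act87E*, another muscle actin gene, was lower in the cold with either dsRNA. In lacZ RNAi it stood at 5.69, 5.31 and 5.61 at 14 °C, 7.10, 6.56 and 6.49 at 25 °C, then 6.03, 8.07 and 6.66 at 30 °C. In H2Av RNAi it stood at 5.61, 5.96 and 6.40, at 6.23, 6.10 and 6.45, and at 7.41, 7.33 and 7.85. All arrays at 14 °C were below all those at 30 °C of the same dsRNA. The 25 °C arrays lay with the 30 °C arrays in lacZ RNAi and with the 14 °C arrays in H2Av RNAi.

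In lacZ RNAi, *Act87E* at 14 °C was at 38.2% of its 30 °C level, 2.62-fold lower (−1.39 ± 0.39 SE, limma adjusted p = 0.0137). In H2Av RNAi it was at 34.3%, 2.91-fold lower (−1.54 ± 0.39, limma adjusted p = 0.00621), and this call held without any 1 array (−1.75 to −1.35). The difference between the 2 changes was −0.15 (95% interval −1.33 to 1.02, limma adjusted p = 0.984), or −0.73 ± 0.37 SE (0.486) without lacZ RNAi 30 °C replicate 2. *Act87E* was the single member probe called in either comparison, where 19.6% of all probes tested were called in lacZ RNAi and 24.3% in H2Av RNAi. On the adjusted p alone, probe 2 of *Act5C* joined it, for 2 of 13 member probes in both, against 31.9% and 38.4% of all probes.

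Single arrays mattered more for *Act87E* in lacZ RNAi. Its highest array was lacZ RNAi 30 °C replicate 2, and without it the change between 14 and 30 °C was −0.81 (limma adjusted p = 0.0398), under 2-fold. Without lacZ RNAi 14 °C replicate 2 it was −1.27 (limma adjusted p = 0.0533). The call was also lost with normexp (−0.75), in the authors' values (−0.84) and in a fit of the groups compared alone (limma adjusted p = 0.104), and that of H2Av RNAi with normexp (−0.90). H2Av RNAi at 30 °C exceeded lacZ RNAi at 30 °C by 0.61 (limma adjusted p = 0.373), and by 1.18 (limma adjusted p = 0.0124) without lacZ RNAi 30 °C replicate 2.

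The steps to and from 25 °C split differently for *Act87E*. In lacZ RNAi the level at 14 °C was 44.1% of that at 25 °C (−1.18 ± 0.39 SE, limma adjusted p = 0.0431), and that at 30 °C differed from it by 0.21 (limma adjusted p = 0.73), or −0.37 (0.325) without lacZ RNAi 30 °C replicate 2. In H2Av RNAi the level at 30 °C was 2.41-fold that at 25 °C (1.27 ± 0.39 SE, limma adjusted p = 0.0469, or 0.055 with the replicate number as a block), and that at 14 °C differed from it by −0.27 (limma adjusted p = 0.72). Both calls were lost on leaving out any 1 of the 6 arrays concerned, with limma adjusted p from 0.0512 to 0.144 for the lacZ RNAi step and from 0.0855 to 0.144 for the H2Av RNAi step. The lacZ RNAi step was −0.51 (limma adjusted p = 0.226) after scaling to the 75th percentile, −0.58 with normexp and −0.66 in the authors' values, and the H2Av RNAi step 0.75 with normexp and 0.84 in the authors' values, none of which was called. Whether these steps differed between the dsRNAs was not tested. They were the calls of a member in these comparisons, where 12.3% of all probes tested were called for 14 against 25 °C in lacZ RNAi and 6.94% for 30 against 25 °C in H2Av RNAi. The array carried 10 spots of the *Act87E* probe, all 180 of which were well above background, and the SD among spots of an array was 0.06 to 0.18.

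**Figure D2:**
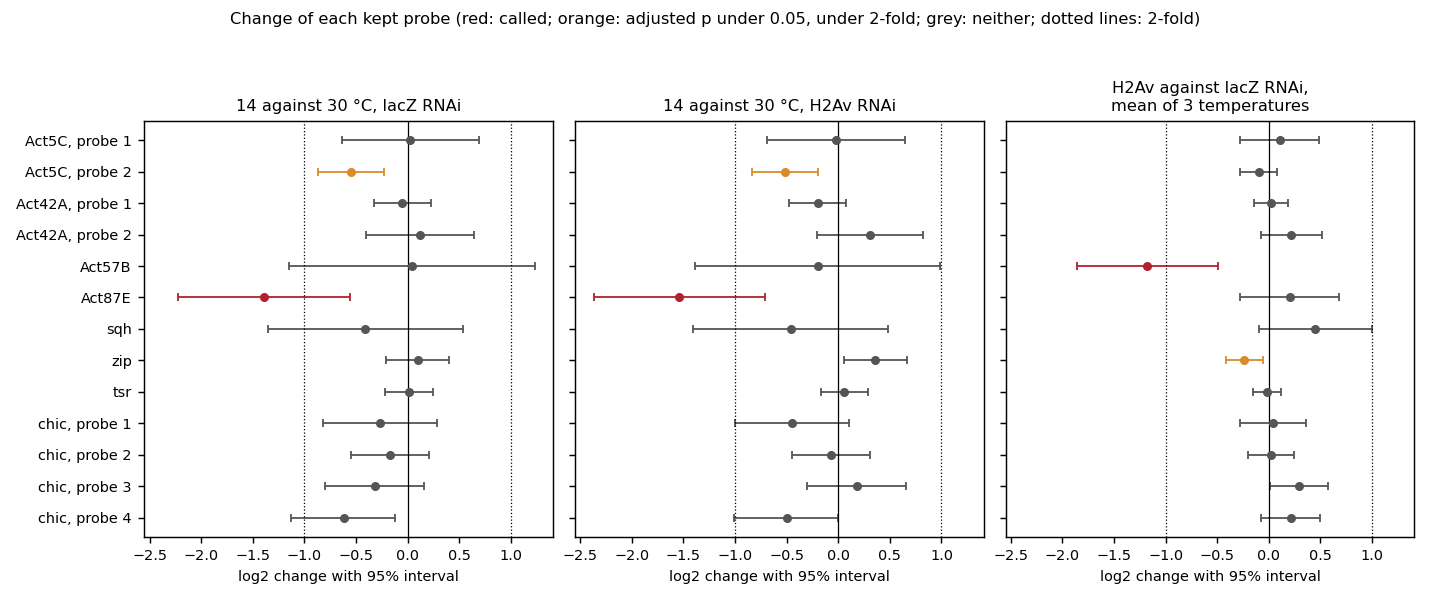
Log2 change of the 13 kept probes, with its 95% interval from limma, for 14 against 30 °C in lacZ RNAi, 14 against 30 °C in H2Av RNAi, and H2Av against lacZ RNAi as the mean of the temperatures. Red marks called changes, orange those past the adjusted p alone, and dotted lines 2-fold. *Act87E* is called in the first pair of panels (−1.39 and −1.54) and *Act57B* in the last (−1.18).

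*Act79B* and *Act88F*, whose products build adult muscles, were not tested, since their probes did not pass the filter on background. *Act79B* gave 1.82 to 3.74 over the 18 arrays and was well above background on 1, H2Av RNAi 30 °C replicate 1. *Act88F* gave 1.82 to 3.32 and was well above background on 1, lacZ RNAi 30 °C replicate 1. On each, 1 of 36 spots was. Levels of a list of 11 muscle markers are given beside the 4 muscle actin genes. The mean log2 signal of the list was 6.22 to 6.61 at 14 °C, 6.2 to 6.67 at 25 °C and 6.10 to 7.22 at 30 °C in lacZ RNAi, and 6.16 to 6.83, 6.39 to 6.85 and 6.96 to 7.35 in H2Av RNAi. Of its 10 tested genes, 2 were called higher and 4 lower at 14 than at 30 °C in lacZ RNAi, with 1 and 3 for H2Av RNAi and none in either direction in H2Av against lacZ RNAi over the temperatures, beside the 19.6%, 24.3% and 8.33% of all probes. Of the 11 markers 8 were well above background on all 18 arrays, among them *Mhc*, the muscle myosin heavy chain, and the other 3, *Mlc1*, *up* and *TpnC73F*, on 6, 8 and 3. The part of these levels in the results for *Act57B* and *Act87E* was not tested.

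The actin genes are close in sequence, and probe sequences were not used here, so signal from one actin transcript on the probe of another was not tested. The genes whose main probe was most alike to *Act57B* over the 18 arrays, of 9939 genes compared, were *Cby* (Pearson r = 0.945), *CG6569* (0.934) and *CG10132* (0.927). Those most alike to *Act87E* were *CG32436* (0.968), *CG5235* (0.945) and *CG7966* (0.939). These are descriptions over arrays that share groups and slides.

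*sqh* encodes the regulatory light chain of non-muscle myosin II, whose phosphorylation switches the motor on. Its arrays stood at 16.48, 16.18 and 16.34 at 14 °C, 14.27, 16.65 and 16.67 at 25 °C, then 16.79, 16.78 and 16.64 at 30 °C in lacZ RNAi. In H2Av RNAi they stood at 16.49, 16.59 and 16.50, at 16.86, 16.56 and 16.88, and at 17.02, 16.82 and 17.12. With either dsRNA, the arrays at 14 °C lay below those at 30 °C without overlap, by −0.41 in lacZ RNAi (limma adjusted p = 0.528) and −0.46 in H2Av RNAi (0.441), which did not pass the test.

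The value of 14.27 came from lacZ RNAi 25 °C replicate 1, and comparisons of *sqh* with that group moved with it. H2Av RNAi at 25 °C exceeded lacZ RNAi by 0.90 (limma adjusted p = 0.141) with that array and by 0.10 (0.658) without it. The step from 25 to 30 °C in lacZ RNAi was 0.88 with it and 0.08 without it, and that of 14 against 25 °C turned from 0.47 to −0.33. None of these passed the test. With all arrays the SE of a *sqh* change between a pair of groups was 0.44 and no interval lay within 2-fold. Without that array the SE was 0.14 for H2Av against lacZ RNAi at 25 °C.

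*zip* encodes the heavy chain of the same motor. It stood at 14.41, 14.03 and 14.39 at 14 °C, 14.28, 14.29 and 14.17 at 25 °C, then 14.19, 14.31 and 14.03 at 30 °C in lacZ RNAi. In H2Av RNAi it stood at 14.37, 14.12 and 14.16, at 14.00, 13.81 and 13.95, and at 13.78, 13.77 and 14.00. The H2Av RNAi arrays overlapped those of lacZ RNAi at 14 °C and lay below them at 25 and 30 °C. Over the temperatures *zip* was at 84.7% of its lacZ RNAi level (−0.24 ± 0.08 SE, limma adjusted p = 0.0364), well under 2-fold. Together with *Act57B* it made 2 of 13 member probes past the adjusted p alone, against 35.9% of all probes. The adjusted p of *zip* rose past 0.05 on leaving out any 1 of 11 of the 18 arrays, to at most 0.0777, and was 0.152 after scaling to the 75th percentile. All 9 intervals of *zip* between pairs of groups lay within 2-fold. *zip* was higher at 14 than at 30 °C in H2Av RNAi by 0.36, with arrays that did not overlap (limma adjusted p = 0.0591). *sqh*, its partner chain, was lower by 0.46 in the same cells. Neither passed the test, *sqh* with the wide SE of 0.44 described above.

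*tsr*, the cofilin gene, was the flattest of the 10. It gave 18.15 to 18.38 on all 18 arrays, with group means that spanned 0.11. Its changes ran from −0.11 to 0.09, and all 9 intervals lay within 2-fold. Under scaling to the 75th percentile *tsr* in H2Av RNAi exceeded lacZ RNAi by 0.33 over the temperatures (limma adjusted p = 0.0988) in place of −0.02. Under that scaling the median change of all probes in the same comparison was 0.255, in place of 0.0132.

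*chic*, the profilin gene, had 4 probes, all designed to the same transcript. Group means of probe 1 were 17.42, 17.53 and 17.69 at 14, 25 and 30 °C in lacZ RNAi. With H2Av RNAi they were 17.38, 17.55 and 17.83. Arrays at 14 °C lay below those at 30 °C with either dsRNA, by −0.27 (limma adjusted p = 0.463) and −0.45 (0.185), which did not pass the test. Both used an SE of 0.26 shared by all 18 arrays, among them lacZ RNAi 25 °C replicate 1, where this probe stood at 18.35. With array weights the changes were −0.22 (limma adjusted p = 0.266) in lacZ RNAi and −0.56 (0.00252) in H2Av RNAi, both under 2-fold. Probe 2 spanned 0.29 over the groups and none of its changes passed the test.

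Probe 3 of *chic* stood at 16.19, 16.04 and 16.11 at 14 °C, 14.76, 15.82 and 15.68 at 25 °C, then 16.62, 16.21 and 16.47 at 30 °C in lacZ RNAi, where the 25 °C arrays were the lowest. In H2Av RNAi its group means were 16.34, 16.32 and 16.16. It was 2.02-fold higher at 30 than at 25 °C in lacZ RNAi (1.01 ± 0.23 SE, limma adjusted p = 0.00991), the single member probe called there, where 8.54% of all probes were called. Without lacZ RNAi 25 °C replicate 1 the rise was 0.68 (limma adjusted p = 0.0127), under 2-fold, as it also was without replicate 1 (0.92) or 3 (1.00) of lacZ RNAi 30 °C, after scaling to the 75th percentile (0.75) and in the authors' values (0.98). In a fit of the groups compared alone its limma adjusted p was 0.239. Probe 4 rose by 0.84 in the same comparison (limma adjusted p = 0.0286, or 1.04 and 0.014 without that array), which made 2 of 13 past the adjusted p alone, against 15.2% of all probes. The adjusted p of probe 4 passed 0.05, to at most 0.106, without replicate 3 of 25 °C or replicate 1 or 3 of 30 °C. Probes 1 and 2 differed by 0.16 (limma adjusted p = 0.69) and 0.29 (0.262), and by 0.57 (0.0228) and 0.05 without that array. On that array probe 1 of *chic* was high, at 18.35 against 17.08 and 17.15 on the others of its group, while probe 3 was low.

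Probe 3 of *chic* was also higher in H2Av than in lacZ RNAi at 25 °C, by 0.90 (limma adjusted p = 0.0103), or 0.57 (0.0214) without lacZ RNAi 25 °C replicate 1, and probe 1 differed by 0.02, or 0.43 (limma adjusted p = 0.0572) without it. With probe 2 of *Act42A* it made 2 of 13 past the adjusted p alone in that comparison, against 27.2% of all probes. In lacZ RNAi it was higher at 14 than at 25 °C by 0.69 (limma adjusted p = 0.0407), or 0.36 (0.129) without that array, and past an adjusted p of 0.05 also without any 1 of the 14 °C arrays. With *Act87E* that made 2 of 13, against 21.7% of all probes.

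**Figure D3:**
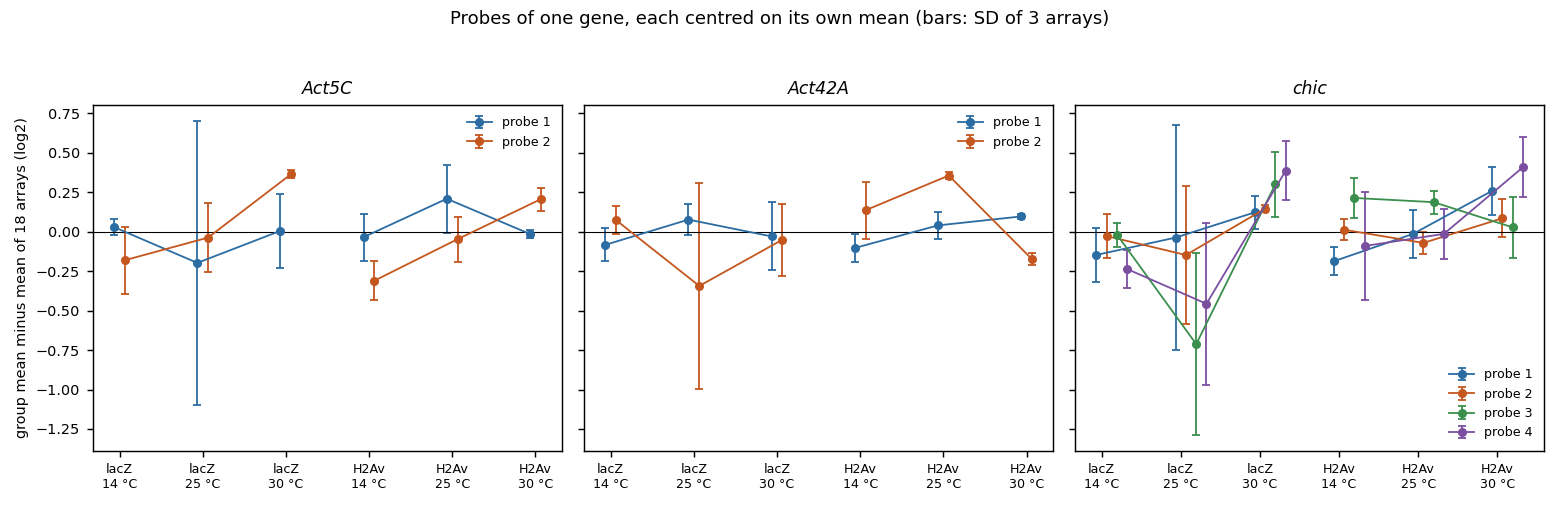
Log2 normalized signal of each probe of *Act5C* (2 probes), *Act42A* (2) and *chic* (4), as group means with SD of 3 arrays, centred on the probe's own mean over the 18 arrays. Lines part for *Act5C* between 14 and 30 °C, and for *chic* and *Act42A* at 25 °C in lacZ RNAi. That last group holds the array that stood apart most, and the partings of *chic* and *Act42A* probes were not tested.

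No member probe was called in the remaining comparisons. These were H2Av against lacZ RNAi at 14 °C, where 3.77% of all probes tested were called, at 25 °C (14.5%) and at 30 °C (6.73%), 14 against 25 °C in H2Av RNAi (7.33%), and the difference between the dsRNAs in the change from 30 to 14 °C (0.400%). At an unadjusted p below 0.05 in limma these comparisons held, in the same order, 1, 4, 1, 0 and 0 of the 13 member probes and 4774, 8781, 5494, 5896 and 1946 of the 21758 probes.

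A list of 69 other genes that act on actin or myosin, in 7 groups by role, was set beside the 10. In 14 against 30 °C, 8 of them were called higher and 2 lower in lacZ RNAi (14.5% of the list) and 7 higher and 4 lower in H2Av RNAi (15.9%), beside the 19.6% and 24.3% of all probes. The median change of the list was 0.13 and 0.01, and that of all probes −0.00964 and −0.0345. Of these, 8 were called with both dsRNAs and in the same direction, which were 80.0% of the lacZ RNAi calls and 72.7% of the H2Av RNAi calls. The same shares over all probes are not given here, so these cannot be read as a trait of the list. None of the 8 genes of the Arp2/3 complex, which nucleates branched filaments, was called in limma in any comparison. Of their 88 changes, 19 had an unadjusted p below 0.05 in limma and 12 an adjusted p below 0.05. Per comparison 0.400 to 24.3% of all probes were called, and whether the complex differed from them was not tested. The 11 genes of capping, severing and monomer binding held 3 called higher and 1 lower at 14 than at 30 °C with either dsRNA.

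*cib*, which encodes an actin monomer-binding protein with thymosin-beta repeats, stood at 12.33, 12.57 and 12.75 at 14 °C, 9.93, 10.61 and 10.84 at 25 °C, then 8.87, 9.40 and 9.12 at 30 °C in lacZ RNAi. In H2Av RNAi it stood at 13.81, 13.90 and 13.82, at 12.62, 12.35 and 12.68, and at 10.62, 10.48 and 10.32. No group overlapped a neighbouring temperature, and each H2Av RNAi group lay above its lacZ RNAi group. The level at 14 °C exceeded that at 30 °C by 3.42 ± 0.22 SE in lacZ RNAi (limma adjusted p = 2.09e-07) and by 3.37 in H2Av RNAi, a 10.3-fold rise (limma adjusted p = 1.5e-07). It was 2.98-fold higher in H2Av than in lacZ RNAi over the temperatures (1.58 ± 0.12 SE, limma adjusted p = 5.72e-07).

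*Gel*, the gelsolin gene, was lower at 14 than at 30 °C, by −2.19 in lacZ RNAi (limma adjusted p = 0.000209) and −1.15 in H2Av RNAi (0.014), the latter lost without H2Av RNAi 14 °C replicate 2. Of its other 2 probes, 1 gave −1.16 (lacZ RNAi) and −1.13 (H2Av RNAi) and the other −2.29 and −2.52. Only the −2.52 was called among these (limma adjusted p = 0.0363). *beta-Spec*, which encodes a spectrin that crosslinks actin under the membrane, was lower by −1.65 and −1.30 (limma adjusted p = 0.000413 and 0.00202). *Fhos*, a formin gene, was higher by 1.89 and 1.79 on its main probe (limma adjusted p = 0.000457 and 0.000578). Its other 3 probes gave 0.76, 1.46 and 0.96 in lacZ RNAi, none of them called. In H2Av RNAi they gave 1.10, 1.78 and 0.79, of which the 1.10 and the 1.78 were called. *GMF*, which encodes a filament debranching factor, was called higher with both dsRNAs. The rise was 1.53 in H2Av RNAi (limma adjusted p = 5.23e-05), and in lacZ RNAi the means were 14.71 at 14 °C and 13.48 at 30 °C.

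In H2Av against lacZ RNAi, *cib* was the single list gene called at 14 °C, at 30 °C and over the temperatures (1.4% of the list each, beside 3.77%, 6.73% and 8.33% of all probes). At 25 °C 5 genes were called higher and none lower (7.2%, beside 14.5%), among them *cib* (2.09) and *beta-Spec* (1.31, limma adjusted p = 0.00393), and 2 higher and none lower without lacZ RNAi 25 °C replicate 1, which took the call of *beta-Spec*. For 14 against 25 °C in lacZ RNAi 5 were higher and 2 lower (10.1%, beside 12.3%, and 4 and 1 without that array), with *cib* (2.09) and *cdi* (1.77) among those higher and *spir* (−1.43) and *form3* (−1.01) lower. Probes of 1 gene disagreed here. Of the other 2 probes of *cdi*, a kinase gene, 1 was called lower (−1.02, limma adjusted p = 0.024) and the other gave −0.18. The other 3 probes of *spir*, which nucleates filaments, gave 0.69, 1.58 and 1.87, none of them past the test. For 30 against 25 °C in lacZ RNAi 5 were higher (*Gel* 1.58, *beta-Spec* 1.52 and *Mrtf* 1.06 the most) and 3 lower (*cib* −1.33, *Fhos* −1.20, *WASp* −1.04), which was 11.6% beside 8.54% of all probes, and 9 and 5 without lacZ RNAi 30 °C replicate 2. The other probes of *Fhos* gave −0.05, 0.29 and 1.41 there and that of *WASp* −0.44. In H2Av RNAi, 14 against 25 °C gave *cib* (1.29) higher and *spir* (−1.96) lower (2.9%, beside 7.33%), with the other probes of *spir* at −0.19, −0.10 and −0.46. For 30 against 25 °C *Myo95E* (1.00) was higher and 5 were lower (8.7%, beside 6.94%), led by *cib* (−2.08), *cher* (−1.46) and *Fhos* (−1.41), with the other probe of *Myo95E* at 0.24 and those of *Fhos* at 0.01, −0.84 and −0.21. Of the genes named for the steps to and from 25 °C, *spir*, *form3*, *Mrtf*, *WASp*, *Myo95E* and *cher*, and *Fhos* in lacZ RNAi, lost a call on leaving out 1 of several single arrays, and *cib*, *cdi*, *Gel*, *beta-Spec* and *Fhos* in H2Av RNAi kept theirs. In lacZ RNAi the calls of *cib*, *Gel* and *beta-Spec* for 30 against 25 °C were lost in a fit of the groups compared alone.

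**Figure D4:**
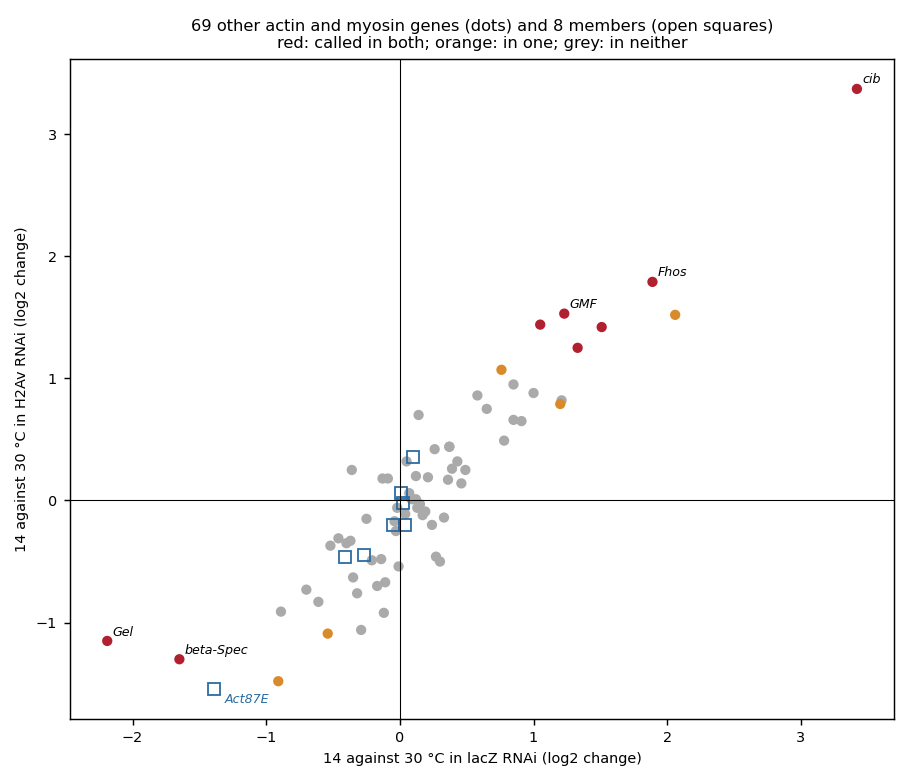
Log2 change at 14 against 30 °C in lacZ RNAi (horizontal) and H2Av RNAi (vertical) of 69 other actin and myosin genes (dots) and of the main probes of the 8 tested members (open squares). *cib* lies apart at 3.42 and 3.37, and of the members *Act87E* lies farthest from 0, at −1.39 and −1.54.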

How the data were processed

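RNA of 18 S2R+ cultures was hybridised to one-colour *Drosophila* arrays. The authors scanned them with Agilent Feature Extraction 10.7.3.1, and the deposited intensity values are the processed signal of each spot, background-subtracted, on a linear scale. The authors also deposited a table of log2 values, quantile-normalized, which served as an alternative only. Its further steps are not given in the sources used here. No column of values was left unused (0).

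Spots flagged as outliers were dropped, log2 of the processed signal was quantile-normalized over non-control spots, and spots of 1 probe were combined by their median. A probe was kept if well above background on at least 2 of 3 arrays of a group, which left 21758 of 32162 probes. No member spot was saturated. A limma 3.58.1 model (R 4.3.3, lmFit and eBayes) estimated the 6 group means from the 18 arrays together, with Benjamini-Hochberg adjustment over all kept probes, and a change was called at adjusted p below 0.05 and at least 2-fold. Fits were tested on simulated data. The number of arrays limits the precision. Groups came from the sample titles, and the replicates were described as replicate experiments and biological replicates.

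Same-numbered arrays deviated together (every correlation over 0.1) in 4 of 15 pairs of groups, those of the 3 H2Av RNAi groups and lacZ RNAi 14 and 30 °C. The block changed a call in these in 1 case, which is given beside its result.

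The 10 genes and the lists were chosen with earlier results of these data known. Of the list, up to 3 genes called highest and 3 called lowest were named per comparison, except for some that are not reported here. For each member whose main probe was called, the 3 genes most correlated with it were named. Gene names and chromosomes came from the array's own transcript names and a RefSeq table (Release 6). Alternatives were scaling to the 75th percentile, normexp background correction, the authors' values, no filter, a replicate block, array weights, only the groups compared, the adjusted p alone, and each array left out. They were applied to further probes and the list after seeing the data.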

Additional observations from a re-analysis of the deposited data

How the results depend on the processing

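The number of the 13 member probes called moved by over 1.5 times in these cases. H2Av against lacZ RNAi over the temperatures (1 in the analysis above) gave 0 after scaling to the 75th percentile, with normexp and in the authors' values, 2 on the adjusted p alone, and 1 to 1 when an array was left out. H2Av against lacZ RNAi at 25 °C (0) gave 1 with the replicate block, 1 with array weights, 2 on the adjusted p alone and 0 to 2 when an array was left out, and at 30 °C (0) 0 to 1. For 14 against 30 °C in lacZ RNAi (1), normexp, the authors' values and the fit on only the groups compared gave 0, the adjusted p alone 2, and arrays left out 0 to 1. For 14 against 25 °C in lacZ RNAi (1), scaling, normexp, the authors' values, no filter, the replicate block and array weights gave 0, the adjusted p alone 2, and arrays left out 0 to 0. For 30 against 25 °C in lacZ RNAi (1), scaling, the authors' values and the fit on only the groups compared gave 0, the adjusted p alone 2, and arrays left out 0 to 1. For 14 against 30 °C in H2Av RNAi (1), normexp gave 0, the adjusted p alone 2, and arrays left out 1 to 1. For 30 against 25 °C in H2Av RNAi (1), normexp, the authors' values, no filter and the replicate block gave 0, and arrays left out 0 to 0. The cause was not tested.

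With normexp *Act87E* changed between 14 and 30 °C by −0.75 in lacZ RNAi and −0.90 in H2Av RNAi. No called change of the 2710 recomputed values reversed, 2595 stayed on their side of the threshold, 99 lost it and 16 gained it. The median change of all probes under the 75th percentile scaling was up to 0.429 (H2Av against lacZ RNAi at 25 °C, in place of 0.0219), where it gave 3897 probes higher and 907 lower in place of 1471 and 1680. Between groups whose same-numbered arrays did not all deviate together, the replicate block took the call of *Act87E* for 14 against 25 °C in lacZ RNAi (adjusted p 0.0525) and added *Act57B* at 25 °C. Array weights did not fully converge. Signal over background limits *Act79B* and *Act88F*.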
